A study of Homo sapiens with 4 samples.

Results

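The 260 genes described here separated the cultures that the sample labels call low for a laminin-binding O-glycan from those called high, in prostate cancer cell lines measured on 1 microarray each. For 163 of them both low arrays lay 2-fold or more above both high arrays, and for 97 both lay 2-fold or more below. They were found among 14006 genes with a named probe, each represented by its brightest probe, on log2(intensity + 1). These 163 and 97 genes are 1.16% and 0.693% of the genes measured, and every list below is read against those shares. The low side held the array titled PC3-L and the array titled LNCaP-AI, and the high side held PC3-H and LNCaP, so that each side had 2 arrays and no condition had more than 1. PC3 derives from a bone metastasis and grows without androgen, and PC3-H and PC3-L were obtained from it with IIH6C4, an antibody against the laminin-binding glycan. LNCaP is a line from a lymph node metastasis, labelled androgen-dependent, and LNCaP-AI is labelled as its androgen-independent derivative, raised in medium with charcoal-stripped serum. All 4 cultures were kept in RPMI1640 with serum, and none carried an engineered allele. The labels rate motility and invasion as high for PC3-L and LNCaP-AI and as low for PC3-H and LNCaP.

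The labels conflict on several points. The free-text descriptions give PC3-H as low and PC3-L as high for the glycan, against the titles and source names followed here. They also call LNCaP moderate for the glycan and androgen-independent, and they place LNCaP-AI in medium conditioned by perineural cells. The line markers add a further conflict. KLK3, the gene of prostate-specific antigen, read 1781 on the LNCaP array but 61.2 on the array labelled LNCaP-AI, 63.4 on PC3-L and 59.0 on PC3-H. FOLH1, the gene of prostate-specific membrane antigen, read 944 on LNCaP and 24.2, 23.0 and 23.4 on those same arrays. CD44, a hyaluronan receptor abundant in PC3, read 297 on the array labelled LNCaP-AI, beside 318 on PC3-L, 239 on PC3-H and 23.9 on LNCaP. The 10 measured PC3 markers summed to 5112 on PC3-L, 4390 on LNCaP-AI, 4850 on PC3-H and 725 on LNCaP. Singly they varied, and AXL was likewise lowest on LNCaP. LCN2 read 1881 on PC3-H but 46.1, 46.0 and 64.5 on PC3-L, LNCaP-AI and LNCaP. VIM read 104 on PC3-H and 65.1 on LNCaP, far below the low arrays. Over all probes the array labelled LNCaP-AI correlated most closely with PC3-L (Pearson r = 0.961), then with PC3-H (0.926), and least with LNCaP (0.885). By KLK3, FOLH1 and CD44 the library labelled LNCaP-AI goes against its line label, and several counts are given with and without it. Whether the differences go with the glycan, with the line, with androgen status or with culture cannot be told apart on 4 arrays.

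The laminin-binding glycan is built on alpha-dystroglycan, a cell surface protein that ties the cell to laminin in the basement membrane. Epithelial cells hold together through tight junctions and desmosomes, and their identity is kept by transcription factors of the grainyhead, ETS and forkhead families. In epithelial-mesenchymal transition these components are lost, vimentin filaments and matrix-degrading enzymes appear, and the cells become motile. The zinc finger repressors SNAI2 and ZEB1 take part in it by binding E-box sequences in the promoters of epithelial genes.

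The array medians lay between 39.8 and 41.2 intensity units, and single values between 17.6 and 11188. Of the 37934 probes tested with limma, 0 (0%) passed a Benjamini-Hochberg adjusted p of 0.05 in either direction. The smallest adjusted p was 0.173, and 3049 probes (8.04%) had an unadjusted p under 0.05. With 2 arrays a side an exact permutation test of a single gene cannot give a two-sided p below 0.333. The differences below are therefore sizes, with limma's standard error (SE) of the mean difference, and no gene among them passed a test. Cultures were not replicated, so the SE holds the spread between unlike cultures. Among markers of other cell types the neuroendocrine list had 1 higher member of 10 (10%), UCHL1, at 208 and 184 on the low arrays against 57.4 and 54.1. CHGA, CHGB and SYP, which define such cells, stayed between 32.2 and 58.2 on all arrays. SYT4, of the same list, read 723 on LNCaP and 23.1, 23.8 and 27.4 on PC3-L, LNCaP-AI and PC3-H. The list had 4 positive and 6 negative differences. Its sum was 538 on each low array, 400 on PC3-H and 1140 on LNCaP. The other lists had no members: 0 of 2 fibroblast, 7 endothelial, 6 leukocyte, 6 perineurial and Schwann cell and 1 erythroid genes, with CD68 the exception in level at 630, 553, 290 and 102 on PC3-L, LNCaP-AI, PC3-H and LNCaP. The summed fibroblast and endothelial markers were 71.7 and 70.2, and 288 and 323, on the low arrays, against 76.1 and 67.3, and 299.96 and 283, on the high arrays. The leukocyte sum, mostly CD68, was 814 and 740 on the low arrays and 488 and 290 on the high arrays, and its part in the results was not tested.

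The gap of a member is the fold between its nearest pair of arrays from opposite sides. The median gap was 2.64-fold among higher genes and 2.66-fold among lower genes, and the median fold between the means of the sides was 3.55 and 3.92. A gap of 4-fold or more was found for 27 higher and 19 lower genes, and one of 8-fold or more for 4 and 3. The widest gaps belonged to MMP1, an interstitial collagenase, at 57.0-fold and to EPCAM, an epithelial adhesion molecule, at 9.18-fold.

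**Figure D1:**
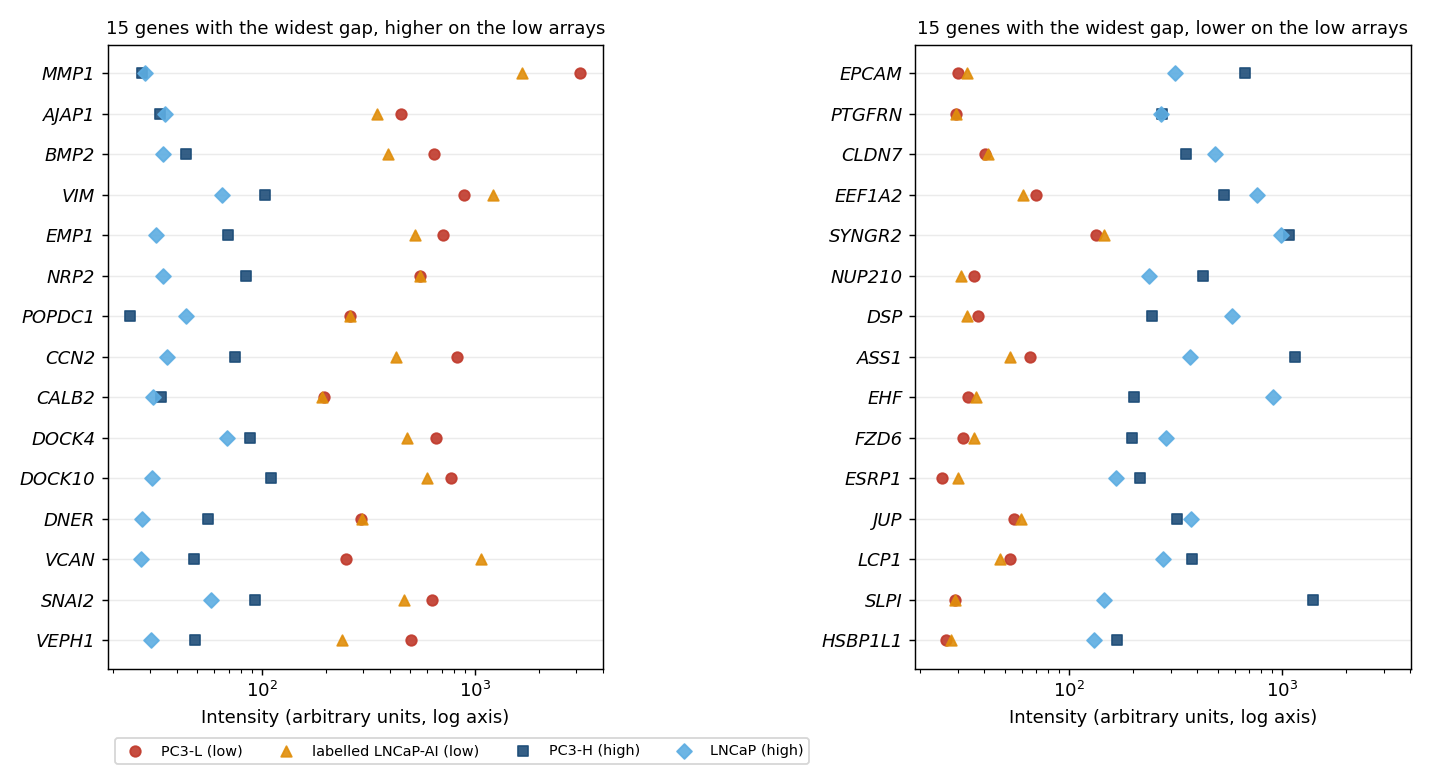
Intensity on each of the 4 arrays (log axis, arbitrary units) of the 15 named genes with the widest gap in each direction, ordered by gap from the top. Each point is 1 array; red and orange points are the low side and blue points the high side, and in every gene the sides stand apart by at least 4.53-fold, with MMP1 farthest at 57.0-fold.

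The genes lower on the low arrays included the adhesion apparatus of epithelial cells. Of 23 measured genes of epithelial junctions and adhesion, 6 (26.1%) were members, all lower: EPCAM, CLDN7, CLDN3, DSP, JUP and LLGL2. EPCAM read 30.1 on PC3-L and 33.3 on LNCaP-AI, against 667 on PC3-H and 314 on LNCaP, a mean difference of -3.81 (SE 0.41) on the log2 scale. Both low values lay below the median of their array, so EPCAM stood at the dim end of the scale on that side. CLDN7, a claudin of tight junctions, read 40.3 and 41.6 on the low arrays and 355 and 486 on the high arrays, a difference of -3.31 (SE 0.19). CLDN3, another claudin, read 106 and 122 against 323 and 334, a smaller difference of -1.52 (SE 0.11). The claudins differed in size but not in side, and within each side both of them varied by less than 1.5-fold.

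Among genes of the desmosome, DSP and JUP were members. DSP, the gene of desmoplakin, which anchors keratin filaments to the desmosome, read 37.2 and 33.3 on the low arrays, 244 on PC3-H and 583 on LNCaP, a difference of -3.39 (SE 0.47). JUP, plakoglobin, which links desmosomal cadherins to desmoplakin, read 54.9 and 59.4 against 320 and 375, a difference of -2.58 (SE 0.13). LLGL2, a basolateral polarity protein, lay at the edge of the rule with 37.6 and 37.6 against 108 and 76.4, a gap of 2.00-fold. The other 17 junction genes did not meet the rule, although 21 of the 23 had a negative difference and the list median was -0.78, beside -0.02 for all genes. MARVELD2, tricellulin, missed it by little at 29.1, 24.8, 58.3 and 257 on PC3-L, LNCaP-AI, PC3-H and LNCaP. By the rule, leaving out an array can only keep or raise such a count. Without the array labelled LNCaP-AI it stayed at 6, while 1.01% of all genes were then lower. Of 7 keratin genes 0 were members, and of 5 membrane-anchored serine proteases, related proteases and inhibitors 1 was, ST14, matriptase, at 45.6 and 50.9 against 449 and 160.

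Epithelial transcription factors and splicing regulators gave the largest share of any list with 5 or more measured genes. Among 17 such genes 8 (47.1%) were members, all lower, and the list median was -1.05. EHF, an ETS factor of epithelia, read 33.7 and 36.5 on the low arrays, 202 on PC3-H and 902 on LNCaP, a difference of -3.57 (SE 0.80). The high arrays themselves lay 4.45-fold apart for EHF, with LNCaP the higher. SPDEF, the prostate-derived ETS factor, read 56.5 and 76.6 against 306 and 566. GRHL2, a grainyhead factor that activates junction genes, read 29.3 and 32.8 against 129 and 287. FOXA1, the forkhead factor that opens chromatin for the androgen receptor, read 35.4 and 38.9 against 160 and 500. In all of these LNCaP was the highest array and PC3-H lay between it and the low arrays. TFAP2C, an AP-2 factor, had the opposite order within the high side, 157 on PC3-H and 116 on LNCaP, against 35.4 and 47.5.

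Both epithelial splicing regulators were members. ESRP1, which binds pre-mRNA and favours epithelial exons, read 25.4 and 30.2 on the low arrays against 216 on PC3-H and 167 on LNCaP, a difference of -2.73 (SE 0.18). Its paralogue ESRP2 read 43.2 and 53.0 against 146 and 235, a difference of -1.93 (SE 0.28). The count for the list, which could not fall, stayed at 8 without the array labelled LNCaP-AI, with 1.01% of all genes then lower. GRHL1, GRHL3, OVOL1, OVOL2, ELF5 and RBM47 were measured as well, had differences from -0.23 (GRHL1) to -1.05 (RBM47), and were not members. The other 3 genes of the list, KLF4, KLF5 and ZNF165, had differences of 0.0963, -0.60 and -0.14. Like GRHL1, they overlapped between the sides.

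A sequence feature that the rule did not use was more frequent in the start regions of lower genes, though many of them lacked it. The E-box CAGGTG was counted on both strands in RefSeq promoter windows (GRCh38.p14), from 250 bases before to 50 after an annotated start. It was present in 37 of 93 windows of lower genes (39.8%), in 33 of 239 windows of higher genes (13.8%), in 19.9% of windows of measured genes that were not members and in 20.6% of all 35116 windows. By gene, 35 of 67 lower genes with a window held it (52.2%), against 27 of 128 higher genes (21.1%) and 24.7% of all measured genes. Windows with at least 2 such sites were found for 20.9% of lower genes, 5.47% of higher genes and 4.12% of measured genes. Windows of a gene with several starts can overlap, 35 higher and 30 lower members had no window in the table, and the motif was chosen after SNAI2 and ZEB1 were seen among the members. The shares are descriptions of these windows and not evidence that a factor binds there.

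The windows below are those of the junction and desmosome genes CLDN7, DSP and JUP and of LAD1, the gene of the basement membrane anchor protein ladinin, chosen because each holds at least 2 E-boxes. CLDN7 and JUP have 2 listed windows each, of which the one with more sites is printed. Their other windows, chr17:7263164-7263463 (CLDN7) and chr17:41786662-41786961 (JUP), held 0 E-boxes. Each is printed 5′ to 3′ on the strand of its gene with the E-boxes in capitals, which read CACCTG where the site is on the other strand. They are from chr17:7262429-7262728 (CLDN7, minus strand), chr6:7541421-7541720 (DSP, plus), chr17:41785927-41786226 (JUP, minus) and chr1:201399275-201399574 (LAD1, minus) of GRCh38.p14.
CLDN7: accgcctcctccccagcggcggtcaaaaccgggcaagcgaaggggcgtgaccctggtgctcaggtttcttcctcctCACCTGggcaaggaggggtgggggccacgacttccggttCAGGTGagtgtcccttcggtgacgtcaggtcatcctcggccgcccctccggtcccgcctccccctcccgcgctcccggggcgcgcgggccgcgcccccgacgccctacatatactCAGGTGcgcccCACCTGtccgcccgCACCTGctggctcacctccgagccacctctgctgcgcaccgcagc
DSP: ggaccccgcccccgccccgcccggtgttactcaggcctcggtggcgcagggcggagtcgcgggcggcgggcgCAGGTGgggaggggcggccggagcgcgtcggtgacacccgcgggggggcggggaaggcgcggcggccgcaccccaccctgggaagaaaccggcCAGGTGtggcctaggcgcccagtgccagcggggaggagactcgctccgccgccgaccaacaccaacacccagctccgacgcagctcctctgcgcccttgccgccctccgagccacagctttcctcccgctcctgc
JUP: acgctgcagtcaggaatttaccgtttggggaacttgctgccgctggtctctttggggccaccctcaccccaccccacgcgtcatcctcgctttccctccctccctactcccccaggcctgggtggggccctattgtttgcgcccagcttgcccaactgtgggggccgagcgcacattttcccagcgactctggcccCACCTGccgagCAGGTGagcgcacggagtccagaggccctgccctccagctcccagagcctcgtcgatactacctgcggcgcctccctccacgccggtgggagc
LAD1: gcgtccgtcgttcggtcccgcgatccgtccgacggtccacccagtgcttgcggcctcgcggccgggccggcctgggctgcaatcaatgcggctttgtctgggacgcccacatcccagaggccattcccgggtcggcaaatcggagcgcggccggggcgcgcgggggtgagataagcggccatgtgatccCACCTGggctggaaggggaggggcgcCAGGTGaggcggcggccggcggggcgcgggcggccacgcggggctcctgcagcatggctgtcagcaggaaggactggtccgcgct
CLDN7 held 5 sites, the nearest beginning 9 bases before and 6 bases after the annotated start, and the other 3 windows held 2 each. LAD1 read 52.4 and 80.0 on the low arrays against 540 on PC3-H and 232 on LNCaP.

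The share of windows with the E-box also varied with the size of the difference over all measured genes. It was 46.3% (25 of 54 windows) for genes at -2 or lower on the log2 scale and 30% (71 of 237) from -2 to -1. It was 20.8% from -0.5 to 0 and 19.5% from 0 to 0.5, and 11.3% for genes at 2 or higher. Genes at -1 or lower that were not members held it in 29.8% of 198 windows. Base composition moved with membership, since the median GC content of the windows was 69.3% for lower genes and 63.0% for measured genes. Of 3 classes of GC content divided at 57.7% and 68%, the richest had the site in 25 of 48 lower windows (52.1%), against 20% of windows of genes that were not members. In the middle class it was 10 of 28 (35.7%) against 21.5%, and in the poorest 2 of 17 (11.8%) against 18.1%. Without the array labelled LNCaP-AI the share was 32.7% (48 of 147) for lower genes and 13.9% for higher genes. For lower genes it was smallest without PC3-H, at 27.5% (119 of 433), and was 35.5% without LNCaP and 39.8% without PC3-L. The share for higher genes in these settings was 13.6%, 11.6% and 12.9%.

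**Figure D2:**
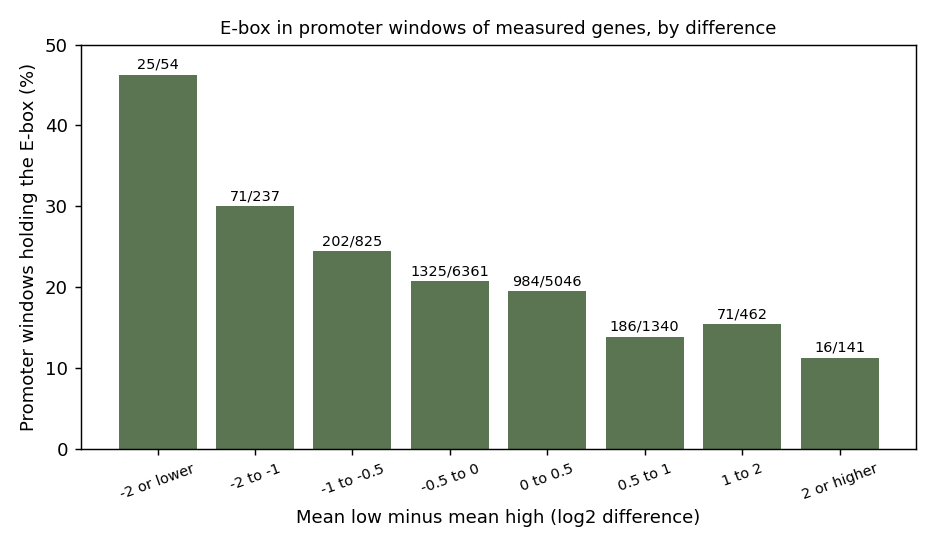
Percent of promoter windows holding the E-box CAGGTG on either strand, for all measured genes with a window, by band of the mean low minus mean high difference (log2). Bars carry the windows with the site over the windows in the band; the share goes from 46.3% in the most negative band to 11.3% in the most positive.

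Sites of other factors were counted in the same way. The AP-1 site TGANTCA was found in 6.69% of windows of higher genes, 2.15% of those of lower genes and 6.12% of measured genes, and by gene in 15 of 128 higher (11.7%), 2 of 67 lower (2.99%) and 7.88% of measured genes. The TEAD site GGAATG was found in 13.4%, 11.8% and 12.1% of these windows, and by gene in 20.3%, 16.4% and 15.3%, with at least 2 sites in 4.69%, 1.49% and 1.6%. Higher genes had more windows each, 1.87 on average against 1.39 for lower and for measured genes, so that shares by gene are not on an equal footing. Only these 3 motifs were searched.

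Lower members outside the junction and transcription factor lists covered enzymes, secretory genes and membrane traffic. PTGFRN, a tetraspanin-associated membrane protein, gave the tightest difference of the wide gaps, 29.4 and 29.4 on the low arrays against 273 and 270, or -3.17 (SE 0.09). EEF1A2, a translation elongation factor, read 70.0 and 60.6 against 534 and 766, and SYNGR2, a vesicle membrane protein, read 134 and 145 against 1084 and 984. ASS1, argininosuccinate synthase, which cells need to make arginine, read 65.5 and 52.9 against 1146 on PC3-H and 371 on LNCaP. The high arrays lay apart mainly for ASS1, by 3.09-fold, and stood close together for PTGFRN and SYNGR2.

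Several further lower genes act in the membrane or in secretion. NUP210, a nuclear pore protein, read 35.9 and 31.1 against 423 and 238. FZD6, a Frizzled receptor, read 31.6 and 35.6 against 197 and 286, while the list of 22 WNT genes, which did not include it, gave 0 lower members. LCP1, the actin bundler L-plastin, read 52.6 and 47.3 against 379 and 276, and HSBP1L1 read 26.4 and 28.0 against 168 and 130. SLPI, a secreted protease inhibitor, read 29.1 on both low arrays against 1393 on PC3-H and 145 on LNCaP, a 9.53-fold range within the high side. Of 33 SNARE and related genes 3 were lower (VAMP8, USE1 and STXBP2) and 0 higher. These 33 were matched by symbol and include non-coding transcripts such as STX17-DT and STXBP5-AS1. Of 21 tetraspanins 2 were lower (TSPAN1 and TSPAN15), and of 5 peroxiredoxins 2 were lower (PRDX2 and PRDX6). These families, and the others given below as families, were looked up after the members' values had been seen.

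On the higher side, of 20 measured mesenchymal genes 6 (30%) were members, all higher: VIM, SNAI2, ZEB1, EMP1, EMP3 and MSN, and the list median was 0.73. VIM, the gene of the intermediate filament vimentin, read 896 on PC3-L and 1216 on LNCaP-AI against 104 on PC3-H and 65.1 on LNCaP, a difference of 3.65 (SE 0.31). VIM is also a line marker of PC3. Of 10 such markers 3 (30%) were higher members, VIM, ANXA1 and UCHL1, with a list median of 1.83 and 7 positive and 3 negative differences, and 2 of 5 LNCaP markers, HOXB13 and SPDEF, were lower members. Both other probes of VIM met the rule in the same direction. Among all 9 other probes of higher members, each lay on the same side but only these 2 met the rule. The other probes of CCN2, VCAN, NAV1 and LIMS3, members named below, did not. SNAI2, the repressor Slug, read 634 and 468 against 93.5 and 57.6, a difference of 2.87 (SE 0.31). ZEB1, the zinc finger repressor, read 225 and 157 against 38.2 and 36.5, a difference of 2.30 (SE 0.21). On the high arrays ZEB1 lay below the array median, and the sides did not approach each other within 4.03-fold.

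The other regulators of the list were not members. SNAI1 read 50.8 and 47.0 against 71.6 and 61.0, and TWIST1 lay higher on both low arrays but under the rule, at 60.4 and 57.1 against 44.0 and 34.6. ZEB2 did so too, at 75.9 and 83.8 against 45.8 and 42.8. Both low arrays lay above both high arrays in 2669 of all 14006 genes. The membrane proteins EMP1 and EMP3 were both members with unlike patterns. EMP1 read 714 and 525 against 69.8 and 31.9, a difference of 3.67 (SE 0.45). EMP3 read 1794 and 2473 against 575 on PC3-H and 37.2 on LNCaP, so that PC3-H stood nearer to the low arrays. MSN, moesin, which joins actin to the membrane, had the same shape at 2718 and 2521 against 1217 and 269. Without the array labelled LNCaP-AI the count for the list, which could not fall, was again 6, with 3.07% of all genes higher.

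MMP1 stood apart from every other gene. It read 3143 on PC3-L and 1664 on LNCaP-AI against 27.4 on PC3-H and 28.2 on LNCaP, a difference of 6.31 (SE 0.35, limma adjusted p = 0.173), and the high values lay below their array medians. Of 20 genes of matrix proteases and their inhibitors 4 were higher and 2 lower, and the higher count was 7 without PC3-H and 6 without PC3-L. The share of all genes that were higher was then 3.22% and 1.73%. Besides MMP1 the higher ones were TFPI2, an inhibitor of matrix serine proteases, at 4768 and 1424 against 450 and 30.7, TIMP1, a metalloproteinase inhibitor, at 998 and 848 against 378 and 46.4, and CTSB, cathepsin B, at 208 and 175 against 54.7 and 63.2. The lower ones were SLPI and CTSZ, cathepsin Z, which read 45.2 and 55.6 against 241 and 129. The members of the list thus held both proteases and inhibitors in each direction. MMP14, the membrane collagenase, read 216 and 508 against 129 and 23.2 and missed the rule because PC3-H lay within 2-fold of PC3-L.

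Matrix genes and their modifiers followed in 3 of 16 cases, all higher, although the list median was -0.02. VCAN, the proteoglycan versican, read 249 on PC3-L and 1067 on LNCaP-AI against 48.0 and 27.2, so the low arrays lay 4.27-fold apart. TNC, tenascin C, read 1692 and 752 against 370 and 39.3, and LOX, the collagen cross-linking oxidase, read 198 and 130 against 58.0 and 43.02. ANPEP, aminopeptidase N, 1 of 7 membrane peptidases, read 1278 and 1219 against 421 and 49.2.

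Ligands, receptors and feedback genes of several pathways were among the higher members. BMP2, a bone morphogenetic protein, read 648 and 393 on the low arrays against 44.3 and 34.3, a difference of 3.66 (SE 0.31). LTBP1, which holds latent TGF-beta in the matrix, read 195 and 321 against 92.6 and 42.4, and GDF15, a distant ligand of the same family, was lower at 69.9 and 60.0 against 147 on PC3-H and 2683 on LNCaP. Of 21 genes of TGF-beta and BMP signalling these 3 were the members. CCN2, a matricellular gene responsive to YAP, read 828 and 429.3 against 74.6 and 36.04, a difference of 3.50 (SE 0.52), and averaging its probes lowered that to 2.06. FOXF2, a forkhead factor, was the other member among 15 YAP-responsive genes, at 187 and 177 against 62.5 and 29.3. DUSP6 and SPRY2, feedback inhibitors of the MAPK pathway, were the 2 members of 13 such genes, at 560 and 306 against 106 and 39.4, and at 185 and 193 against 72.0 and 29.7.

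Receptors and adhesion molecules showed the same division. NRP2, a co-receptor of semaphorins and VEGF, read 557 and 556 on the low arrays, 84.3 on PC3-H and 34.3 on LNCaP, a difference of 3.34 (SE 0.47). Its relative NRP1 was measured too and had a difference of -0.07. FAT1 and FAT4, giant cadherins, read 1026 and 585 against 113 and 166, and 163 and 148 against 34.4 and 30.5. AJAP1, an adherens junction-associated protein, read 452 and 348 against 33.3 and 35.3, the second widest gap at 9.62-fold. DNER, a Notch ligand, read 293 and 296 against 55.8 and 27.5, and POPDC1, a cyclic AMP-binding adhesion protein, read 260.1 and 259.6 against 24.2 and 44.1. CALB2, the calcium-binding protein calretinin, read 197 and 192 against 33.9 and 31.1. In the members of this group other than FAT1 the low arrays lay less than 1.5-fold apart.

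Genes of the actin cytoskeleton were members in both directions. From the list of 21 actin and adhesion genes 2 were higher (DOCK10 and MYO10) and 1 lower (ARHGAP29). Without PC3-H 8 were higher, with 3.22% of all genes then higher. Of 23 genes with a myosin symbol, the antisense transcript MYO16-AS1 among them, 1 was higher (MYO10) and 1 lower (MYO5C), with a median of -0.02. MYO5C read 25.4 and 22.2 against 82.2 and 215. Of 10 DOCK genes, whose products activate RAC and CDC42, 3 were members and all higher. DOCK4 read 663 and 484 against 88.6 and 69.1, DOCK10 read 773 and 597 against 111 and 30.5, and DOCK11 read 126 and 104 against 45.1 and 31.2. ELMO2, a partner of DOCK proteins, read 238 and 224 against 100.2 and 107. Of 3 formin-like genes, which extend actin filaments, FMNL2 (466 and 501 against 112 and 29.8) and FMNL3 were members. VEPH1, a pleckstrin homology protein, read 504 and 238 against 48.7 and 30.3. The spectraplakins DST and MACF1, which cross-link actin and microtubules, were members while their relative PLEC was not, and so were NAV1 and NAV3 of 3 neuron navigators. The PINCH genes LIMS1 and LIMS3 and their partner RSU1 were members as well but LIMS2 was not, and LIMS1 and LIMS3 are near copies whose probes may share signal. Other cytoskeletal members were TIAM1, IQGAP1, NCKAP1, TPM4, MYO10 and RAPH1, with gaps from 2.03-fold (NCKAP1) to 2.91-fold (RAPH1 and TIAM1).

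**Figure D3:**
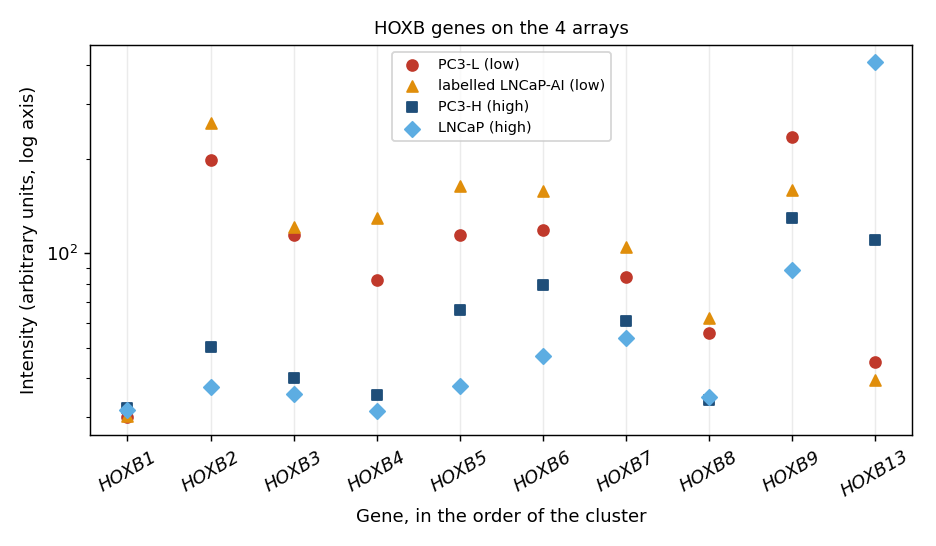
Intensity of the 10 measured HOXB genes on the 4 arrays (log axis, arbitrary units), in cluster order; each point is 1 array. Both low arrays lie above both high arrays from HOXB2 to HOXB9, by 3.89-fold for HOXB2 and 1.23-fold for HOXB9, and below them for HOXB13. Of all 14006 genes, 2669 have the low arrays above and 2891 below.

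The HOXB cluster, a run of homeobox genes that set position along the body axis, held members of both directions. HOXB2 read 198 and 261 on the low arrays against 50.2 and 37.3, HOXB3 read 115 and 121 against 39.9 and 35.4, and HOXB4 read 82.2 and 130 against 35.3 and 31.5. HOXB13, a prostate lineage gene at the far end of the cluster, was lower at 45.1 and 39.5 against 110 and 407, and its neighbour PRAC1 was lower at 51.1 and 29.1 against 189 and 645. From HOXB5 to HOXB9 the low arrays again lay above the high arrays, with gaps from 1.23-fold to 1.73-fold that did not meet the rule. That order alone was common: of all 14006 genes, both low arrays lay above both high arrays in 2669 and below them in 2891. HOXB1 lay near the dim end on all arrays, at 29.9 and 30.3 against 32.0 and 31.6. Of 7 HOXC genes 0 were members.

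Small RNA precursors contributed 2 higher members, MIRLET7I and MIR4737. The precursor probe of let-7i read 172 on PC3-L and 178 on LNCaP-AI against 58.3 on PC3-H and 41.6 on LNCaP, a difference of 1.81 (SE 0.20). It was the 1 member among 9 measured let-7 precursors, whose other differences ran from -0.59 to 0.30. The mature strand is shown from RefSeq (GRCh38.p14, chr12:62603691-62603712, plus strand) with its seed, bases 2 to 8, in capitals, since this seed is what the let-7 family shares.
hsa-let-7i-5p: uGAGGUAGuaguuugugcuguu
The array reads the precursor or its host transcript and not the mature strand. The 5 precursors of the miR-200 family and miR-141, which restrain ZEB factors, had differences from -0.30 to 0.13 and were not members. Their probes were dim, at 23.5 to 33.4 on the low arrays and 23.0 to 51.1 on the high arrays. Small differences at such levels do not show whether the mature strands differed.

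The higher members tended to be long genes. Their median length, from the first to the last base of the RefSeq gene, was 87.7 kb, against 21.9 kb for lower members and for all measured genes. Of the higher members 74 (45.4%) were longer than 100 kb, against 15.5% of the lower members and 15.6% of all genes. Among protein-coding genes the higher share was 0.697% under 10 kb, 3.35% from 100 to 300 kb and 4.38% over 300 kb, while the lower share moved only between 0.626% and 1.05%. The median difference of all protein-coding genes from 100 to 300 kb was 0.06 and that of genes under 10 kb was -0.05. These values pool pairs that differed. For PC3-L minus PC3-H the median was -0.115 under 10 kb and -0.0581 from 10 to 30 kb. It was 0.0783 from 30 to 100 kb, 0.155 from 100 to 300 kb and -0.00231 over 300 kb. For the array labelled LNCaP-AI minus LNCaP, the medians of these classes stayed between -0.0174 and 0.0323. The cause of this contrast was not tested. Without the array labelled LNCaP-AI 38.8% of higher genes were longer than 100 kb. By chromosome the highest count was 24 higher genes on chromosome 2, of 908 measured, and chromosome 19 held 4 higher and 13 lower of 1046.

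**Figure D4:**
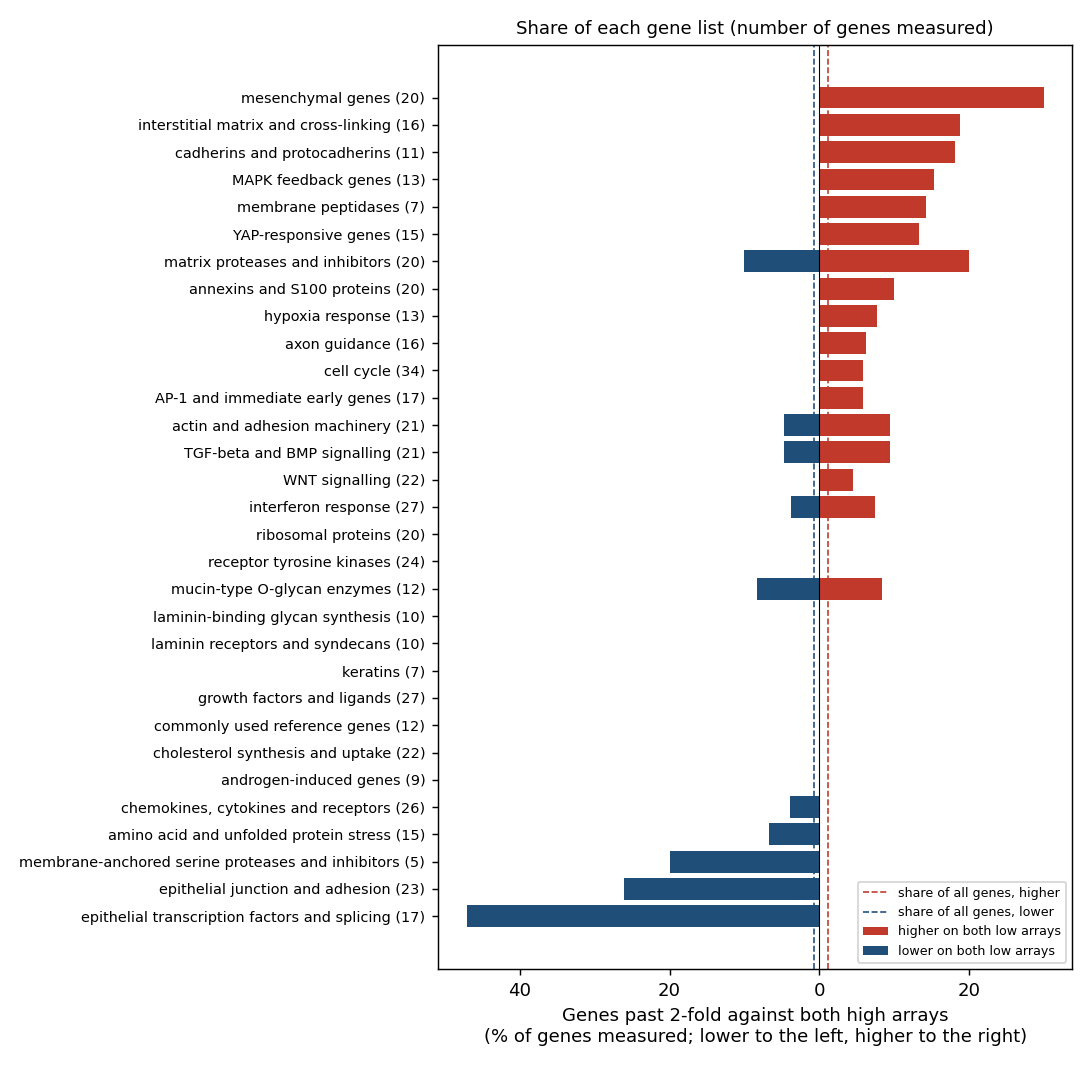
Percent of the measured genes of each list that were higher (red, right) or lower (blue, left) on both low arrays by 2-fold or more, with the number measured in brackets and the shares of all genes, 1.16% and 0.693%, as dashed lines. Epithelial transcription factors and splicing reach 47.1% on the lower side and mesenchymal genes 30% on the higher side.

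Most other lists held few or no members. Without the array labelled LNCaP-AI, counts could only stay or rise. They stayed in 24 of 41 lists and 17 of 23 families, while 3.07% of all genes were then higher and 1.01% lower. Among those that changed, the higher count went from 0 to 6 of 22 for cholesterol synthesis, from 0 to 4 of 27 for growth factors, from 2 to 5 of 21 for TGF-beta and BMP signalling, from 2 to 4 of 13 for MAPK feedback genes, from 2 to 4 of 34 for the cell cycle and from 0 to 3 of 33 for SNARE and related genes. Without PC3-H 31 lists changed, while 3.22% of all genes were then higher and 2.81% lower. Among these lists YAP-responsive genes went from 2 to 7 higher, interstitial matrix genes from 3 to 6 higher and androgen-induced genes from 0 to 5 lower. The synthesis of the laminin-binding glycan itself had 0 of 10 measured genes in either direction, with a list median of -0.05. LARGE2, a glycosyltransferase that extends the glycan, came nearest at 54.3 and 62.2 against 160 on PC3-H and 92.5 on LNCaP, a difference of -1.06 (SE 0.31) and a gap of 1.48-fold. POMK, the kinase that phosphorylates its core mannose, read 211 on PC3-L, 190.5 on LNCaP-AI, 124 on PC3-H and 530 on LNCaP, so that the low arrays lay between the high ones. The other 8, POMT1, POMT2, POMGNT2, RXYLT1, DPM3, DOLK, GMPPB and CHST10, had differences from -0.17 (POMT1) to 0.03 (POMGNT2). DAG1, the gene of dystroglycan itself, was not analysed here. The counts for the glycan genes stayed at 0 without either low array, and 1 gene was lower without PC3-H and 1 without LNCaP. Of all genes 2.81% were lower without PC3-H and 1.97% without LNCaP.

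The mucin-type O-glycan enzymes held 1 member in each direction of 12, GALNT14 at 177 and 115 against 40.4 and 48.3, and GALNT3 at 32.6 and 28.0 against 153 and 86.3. Both start mucin-type chains by adding the first sugar. Laminin receptors and syndecans had 0 of 10, receptor tyrosine kinases 0 of 24, growth factors 0 of 27, cholesterol synthesis 0 of 22, ribosomal proteins 0 of 20 and commonly used reference genes 0 of 12. Androgen-induced genes had 0 of 9 members with a list median of -1.03, and their summed level was 589.7 on PC3-L, 560.4 on LNCaP-AI, 665 on PC3-H and 4616 on LNCaP. Of 27 interferon genes 2 were higher, IFI44 (136 and 144 against 59.7 and 45.0) and SAMD9 (271 and 236 against 83.9 and 44.2), and 1 lower, IFITM2 (46.5 and 59.0 against 387 and 168). Of 34 cell cycle genes TOP2A (839 and 914 against 356 and 359) and KIF11, both mitotic, were higher. TCF4, KLF2, CXCL16 and ANXA6 were the members of their lists besides those named, with differences of 2.29, 1.46, -1.96 and 1.55.

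**Figure D5:**
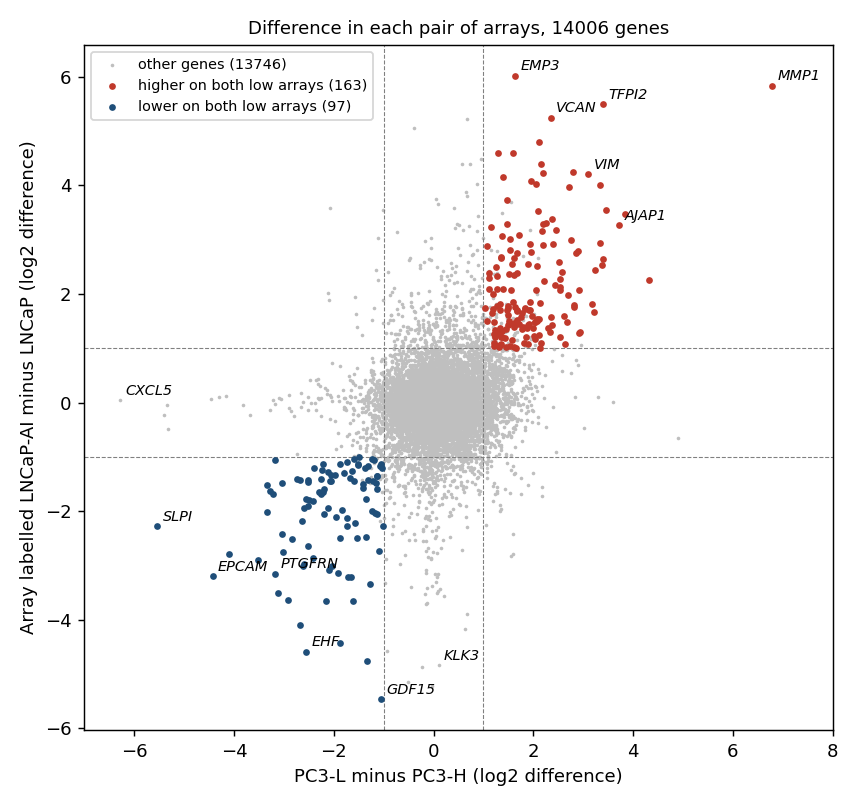
Log2 difference of each of the 14006 genes between PC3-L and PC3-H (horizontal axis) and between the array labelled LNCaP-AI and LNCaP (vertical axis); each point is 1 gene, red and blue points are the 163 higher and 97 lower genes, and dashed lines mark 2-fold. Genes such as CXCL5 and KLK3 lie on 1 axis only.

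Members differed in which arrays set their gap. Between the low arrays the median fold was 1.29 for higher and 1.12 for lower genes, and between the high arrays it was 1.28 and 1.55. PC3-H was the high array nearer to the low side for 111 of 163 higher genes but for 49 of 97 lower genes. The array labelled LNCaP-AI was the low array nearer to the high side for 116 higher and 55 lower genes. Among higher genes the low arrays lay farthest apart for ESM1 (940.5 and 207), VCAN, NRIP3 (693 and 168), TFPI2 and HMOX1 (572 and 187), with PC3-L the higher in all but VCAN. Among lower genes they lay farthest apart for TXNIP (29.0 and 62.1), PRAC1, REEP6 (51.3 and 89.4), LAD1 and CRYBG1 (23.0 and 35.1), with PC3-L the higher in PRAC1 only. Among higher genes the high arrays lay farthest apart for EMP3 (15.1-fold), TFPI2 (14.2-fold), ANXA1 (294 and 28.9), PLEK2 (439 and 43.9) and TNC, each with PC3-H above LNCaP. Among lower genes the high arrays did so for GDF15 (18.2-fold), SLPI, ADGRG6 (94.0 and 817), CD24 (248 and 54.8) and EHF, with PC3-H the higher in SLPI and CD24 only.

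The edge of the rule is shown by its nearest genes. RASA2, ATF2 and TRHDE were the last inside on the higher side, each with a gap of 2.01-fold, and SLK at 2.00-fold (1.995), ANKRD30BP2 and ARHGAP12 at 1.99-fold were the first outside. On the lower side LLGL2, STAG2 and HILPDA were the last inside, and GPX1 and RHOB at 1.98-fold and MARVELD2 at 1.97-fold the first outside. The cohesin subunits STAG1 and STAG2 lay on opposite sides, at 189 and 157 against 76.2 and 65.0, and at 68.6 and 52.8 against 139 and 260.

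A mean difference of 2-fold was common outside the members. It was reached by 303 further genes on the higher side and 188 on the lower side. In 269 and 138 of these the sides stood apart by less than 2-fold, and in 34 and 50 they overlapped. AXL, a receptor tyrosine kinase, read 900 and 1015 on the low arrays, 609 on PC3-H and 47.4 on LNCaP, so that only LNCaP stood apart. CXCL5, a neutrophil chemokine, read 2454 on PC3-H and 30.7, 34.2 and 33.2 on PC3-L, LNCaP-AI and LNCaP, so that only PC3-H did. In the pairs taken singly, 36 genes lay 2-fold or more higher in the PC3 pair and lower in the LNCaP pair, and 15 the other way.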

How the data were processed

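RNA from 4 cultures (isolated with ISOGEN II) was labelled by a whole-transcript kit and hybridised to Affymetrix arrays, per the labels' protocols. The authors deposited linear intensities, 1 for each probe and array. Their summarisation and normalization are not given in the sources used here; the design text names GeneSpring GX 12.6. Groups were taken from the source names. Of 37934 probes, 14952 had 1 gene symbol in the platform annotation, 0 had several and 22982 none. Intensities were taken to log2 after adding 1, and each gene was read from its brightest probe, by the mean of all 4 arrays. Members are genes for which both low arrays lay 2-fold or more from both high arrays. Limma 3.58.1 (lmFit and eBayes, Benjamini-Hochberg over all probes, in R 4.3.3) compared the sides and was tested on simulated data. Pairing by labelled line was an alternative, as were the pseudocount, scaling, filter, threshold, probe rule and each array left out. Genes named with values were the 15 widest gaps a direction (without small RNAs and uncharacterised frames), members of the 41 gene lists, all genes of the glycan list, and those nearest the threshold or with the widest spread; others were named after their values were seen. The members and lists were chosen with earlier results of these data known. Gene lengths, promoter windows and the mature miRNA came from RefSeq (GRCh38.p14).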

Additional observations from a re-analysis of the deposited data

Results flagged for a closer look

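POMK, the kinase that phosphorylates the core mannose of the laminin-binding glycan, moved in opposite directions in the pairs: it lay 0.77 higher on PC3-L than on PC3-H and -1.47 on the array labelled LNCaP-AI relative to LNCaP, on the log2 scale. The difference between the pairs was not tested, since each rests on 1 array a side. Among the 22982 probes without a gene symbol, which entered no count of genes, 111 (0.483%) lay 2-fold or more higher and 98 (0.426%) lower on both low arrays, against 1.16% and 0.693% of named genes.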

How the results depend on the processing

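The counts of higher and lower genes held within 1.5 times of 163 and 97 under a pseudocount of 16 (124 and 69), median centring (167 and 93), quantile normalization (163 and 99), the filter on dim probes (163 and 97) and the mean over the probes of a gene (160 and 96). A threshold of 1.5-fold gave 406 and 239 and one of 3-fold 48 and 36, and the mean difference alone gave 466 and 285, as their construction requires. Leaving out 1 array can only add genes: the counts then lay between 243 and 451 higher and between 126 and 393 lower, and all 260 genes stayed. They were 430 and 142 without the array labelled LNCaP-AI, 334 and 276 without LNCaP, and 451 and 393 without PC3-H. Turning the PC3 pair, as the free-text descriptions have it, left 9 higher and 13 lower genes. That 0 of them were members was fixed by the rule, which sets PC3-L 2-fold or more from PC3-H. The members thus depend on the titles and source names by construction. After turning, the mean difference of a member keeps its sign only where the LNCaP pair had the larger difference. With limma 0 probes were called under each setting run except without PC3-H, where 15 were higher and 57 lower; across the arrays left out the calls ran from 0 to 15 and from 0 to 57, with the lone array on a side assumed to vary like the others and 1 residual degree of freedom. The cause was not tested. With the labelled line as a replicate block, which pairs PC3-L with PC3-H and LNCaP-AI with LNCaP, limma called 0 higher and 0 lower probes, with 2521 at an unadjusted p under 0.05 and 1 residual degree of freedom. With the PC3 pair turned, the mean log2 difference changed sign for 39 named genes, to EPCAM 0.61, PTGFRN 0.0111, SYNGR2 0.13, NUP210 0.32, ASS1 0.66, ESRP1 0.31, LCP1 0.15, SLPI 1.63, HSBP1L1 0.22, GALNT3 0.30, CLDN3 0.0742, LLGL2 0.25, TFAP2C 0.42, ST14 0.82, CTSZ 0.60, CXCL16 0.54, IFITM2 0.77, ARHGAP29 0.53, POMT1 0.0318, POMT2 0.0081, LARGE2 0.49, DPM3 0.14, GMPPB 0.10 and CHST10 0.0683, and to MMP1 -0.48, AJAP1 -0.23, BMP2 -0.18, POPDC1 -0.42, DOCK4 -0.0501, VEPH1 -0.20, GALNT14 -0.43, ZEB1 -0.23, LOX -0.0928, CTSB -0.23, KLF2 -0.0377, TCF4 -0.53, KIF11 -0.21, FAT1 -0.68 and UCHL1 -0.0472. Leaving out 1 array turned the sign of NRP1, which ranged from -0.92 to 0.79, and of 7 glycan genes: POMT2 ranged from -0.17 to 0.0978, POMGNT2 from -0.0658 to 0.12, POMK from -1.40 to 0.69, RXYLT1 from -0.107 to 0.0136, DOLK from -0.15 to 0.0877, GMPPB from -0.14 to 0.0417 and CHST10 from -0.11 to 0.0418. A pseudocount of 16 moved 22 of 81 named differences by more than the spread within a side, all without a change of sign (MMP1 to 5.72), quantile normalization moved 2 and median centring 1, and averaging probes took CCN2 to 2.06 and VCAN to 2.45. The count of lower epithelial transcription factors lay between 8 and 9, of lower junction genes between 6 and 8, of higher mesenchymal genes between 6 and 9, of higher matrix proteases and inhibitors between 4 and 7 and of lower glycan genes between 0 and 1 with an array left out, settings chosen after seeing the data. In those settings 0.9% to 2.81% of all genes were lower and 1.73% to 3.22% higher. With 1 array per culture nothing measures the spread between cultures of a kind, and dim probes, at or below the array medians on 1 side for 26 higher and 40 lower genes, understate the fold.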
